A study of Mus musculus with 9 samples.

Results

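The genes described here belong to a group of 5 transcripts of red blood cells and of the vessels around the embryonic mouse lens. They are the alpha globin gene Hba-a2, the zeta globin gene Hba-x, the erythroid membrane gene Ermap and the endothelial receptor gene Tek. The group was taken by feature name, and was chosen by their measured RPKM in these libraries: each differed between conditional knockout and mixed wild type lenses, the comparison on which the authors' tables for those groups had been selected. The 5 genes are among the 7676 listed for inbred wild type lenses, the 190 listed for the other groups and the 128 found in all 9 libraries, and 4 of them are described.

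RNA from whole lenses at 15.5 days post conception was sequenced in 3 groups of 3 libraries, each made from a pool of 30 lenses and described in the labels as an independent biological replicate. Inbred wild type lenses came from the strain C57Bl/6<har>. Mixed wild type lenses (genotype Sip1 flox/flox without Cre) and conditional knockout lenses (cKO, Sip1 flox/flox with MLR10Cre) share the floxed alleles of Sip1, the product of the transcription factor gene Zeb2, and a mixed strain background. The design asks how lenses without Sip1 differ from mixed wild type lenses, and how mixed differ from inbred wild type lenses. MLR10Cre is directed to lens cells by an alphaA-crystallin promoter, so blood and vessel cells lie outside the tissue the transgene is built for. The cKO and mixed groups also differ in the Cre transgene itself, and mixed and inbred lenses differ in strain, floxed alleles, sequencing depth and type of deposited table, which cannot be told apart. Zeb2 is not among the 190 genes listed for mixed and cKO lenses, and the targeted gene therefore gave no check of the labels.

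The lens has no blood vessels of its own. Before birth it is wrapped in the hyaloid vessel network, whose capillaries of endothelial cells and pericytes carry blood over the lens surface and regress after birth. Mouse red cells first come from the yolk sac and make embryonic globins such as zeta globin and epsilon-y globin, and later come from the fetal liver and make adult alpha and beta globin. Haemoglobin is a tetramer of alpha-type and beta-type chains, each with a haem group. TEK, also called TIE2, is the receptor tyrosine kinase on endothelial cells that binds the angiopoietins.

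Erythroid genes are known for GATA-factor binding sites near their starts. The 250 bases before the start of Hba-a2, Hba-x and Ermap are shown because these 3 genes were low together in cKO lenses and each window holds the GATA-type word TGATAA, in capitals (as TTATCA where it lies on the opposite strand). The sequences are from RefSeq on GRCm38.p6, at chr11:32296242-32296491 (+) for Hba-a2, chr11:32276350-32276599 (+) for Hba-x and chr4:119189996-119190245 (-) for Ermap, and are written 5′ to 3′ on the gene's strand. The build of the deposited values is not given in the sources used here.
Hba-a2: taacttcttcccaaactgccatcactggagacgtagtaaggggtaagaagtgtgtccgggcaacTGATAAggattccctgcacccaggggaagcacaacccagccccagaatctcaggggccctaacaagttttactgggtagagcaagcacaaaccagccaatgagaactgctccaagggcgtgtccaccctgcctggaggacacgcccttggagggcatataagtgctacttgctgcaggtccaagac
Hba-x: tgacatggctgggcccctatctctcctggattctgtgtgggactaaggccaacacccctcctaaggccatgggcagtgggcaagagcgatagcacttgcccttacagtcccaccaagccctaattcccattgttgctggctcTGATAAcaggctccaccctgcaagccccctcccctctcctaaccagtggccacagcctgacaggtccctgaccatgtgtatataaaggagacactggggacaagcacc
Ermap: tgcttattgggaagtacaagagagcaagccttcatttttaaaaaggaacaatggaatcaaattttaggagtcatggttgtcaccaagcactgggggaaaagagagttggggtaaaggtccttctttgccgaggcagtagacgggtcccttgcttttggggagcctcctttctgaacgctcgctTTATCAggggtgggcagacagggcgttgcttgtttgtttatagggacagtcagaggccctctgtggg

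The word began 186 bases before the start in Hba-a2, 108 bases before it in Hba-x and 67 bases before it, on the opposite strand, in Ermap. Over 32851 windows of 300 bases (250 before to 50 after a start), searched on both strands, 9.05% held TGATAA, 11.2% held the other GATA-type word AGATAA and 18.6% held either. Tek had AGATAA 37 bases after its start. Of words bound by KLF-type factors, CCACACCC was in none of the 4 matched windows (3.56% of all windows), while the shorter CACCC, which the longer word contains, was in all 4 (57.5% of all windows). The ETS-type word AGGAAG, found in 35.4% of windows, was present 22 bases after the start of Hba-a2 and in none of the other 3 windows. Such matches describe letters and do not show binding. The windows shown were picked for holding TGATAA, so the share over all windows is given as a description, and enrichment was not tested.

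Libraries held 14.1 to 16.7 M reads (M, mega) in inbred, 38.7 to 44.1 M in mixed and 25.9 to 27.4 M in cKO lenses. These depths were recovered from the steps between the authors' RPKM values (read counts divided by the length of the exons and by the mapped total), and 100% of the low values used were whole reads within 0.1 read. No 2 replicates of a group agreed within sampling noise. The chi-square for each degree of freedom was 6.97 to 16.7 in inbred lenses, over 7676 genes. It was 29.2 to 54.5 in mixed lenses, over 128 genes, and 15.4 to 31.7 in cKO lenses, over 126 or 127 genes. Gene sets and depths differ, so these ranges do not rank the groups. The markers of lens cells dominated the inbred libraries. The crystallin gene Cryaa had the highest level of all genes (89016 ± 2774 RPKM, SD, n = 3), and the 13 listed genes of the 14 on the lens list summed to 96422 to 102526 RPKM. The erythroid list had 17 of 42 genes in the inbred table, summing to 1339 to 1366 RPKM, and the endothelial list 10 of 34, summing to 52.4 to 56.4 RPKM. No member of the macrophage (18 genes) or platelet list (10 genes) was in the inbred table, whose lowest mean level was 2 RPKM.

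The 4 genes went in 2 directions in cKO lenses. Hba-a2, Hba-x and Ermap were lower there than in both wild type groups, 2.82-fold to 4.39-fold by mean RPKM, and Tek was 3.06-fold higher than in each. Between the 2 wild type groups, Ermap was higher in mixed lenses beyond the replicate spread, and Hba-a2, Hba-x and Tek had overlapping libraries. In bulk RNA from whole lenses, fewer cells of a type and less RNA per cell cannot be told apart.

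**Figure D1:**
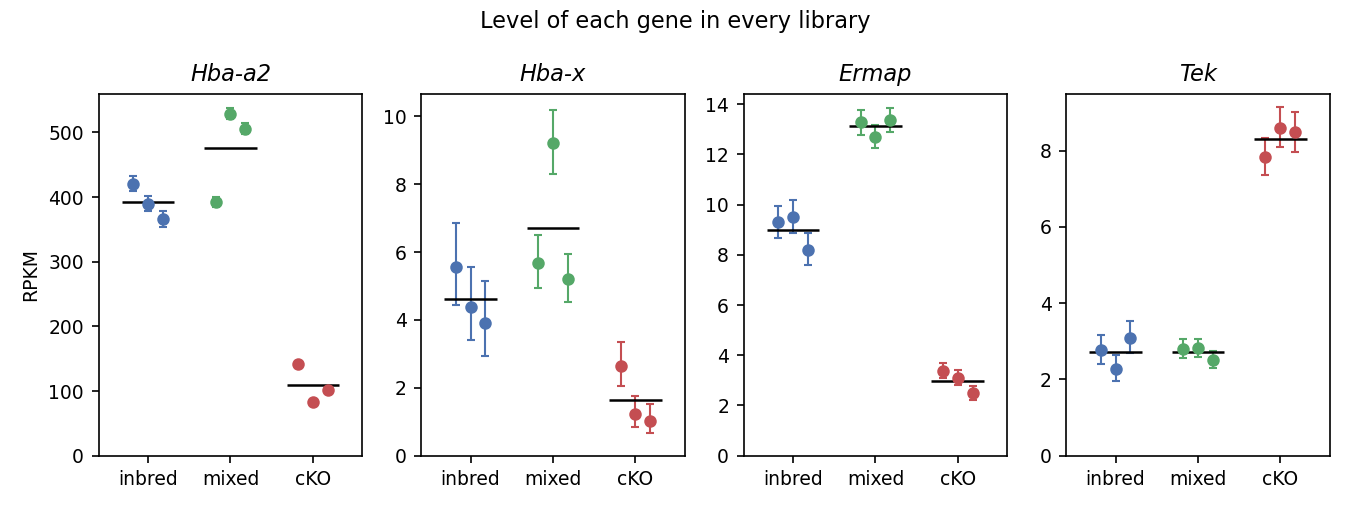
RPKM of each gene in every library, 1 panel a gene with its own linear axis from 0. Points are libraries in the order of replicates 1 to 3, bars on points are 95% Poisson intervals of the recovered reads (counting error only) and black lines are group means. In each panel the 3 cKO libraries lie apart from the mixed and the inbred libraries.

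Hba-a2 encodes the alpha chain of adult haemoglobin. Its level was 421, 389 and 365 RPKM in inbred, 392, 529 and 506 RPKM in mixed and 141, 83.4 and 102 RPKM in cKO lenses. Every cKO library was below every wild type library, and mixed replicate 1 lay within the inbred range. The group means were 392 ± 27.8, 476 ± 73.3 and 109 ± 29.5 RPKM (SD, n = 3 each). The cKO mean was 4.37-fold below mixed and 3.598-fold below inbred. At 1445 to 15289 reads a library, counting error was at most 2.63%, well under the 27.0% spread of the cKO libraries. This gene's values are uncertain, since 91.0% of the 31-base words of its transcript also occur in the neighbouring gene Hba-a1. The longest transcripts are identical at 537 of 538 aligned bases, so the authors' counting could have split or shared reads between them. Hba-a1 is not among the 190 genes listed for mixed and cKO lenses. The fold also depended on the value used: by the authors' normalized values the Hba-a2 mean was 7.22-fold lower in cKO than in mixed lenses.

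Hba-x encodes zeta globin, the alpha-type chain of embryonic haemoglobin, and lies in the same cluster on chromosome 11. It was at 5.56, 4.38 and 3.92 RPKM in inbred, 5.68, 9.22 and 5.20 RPKM in mixed and 2.65, 1.24 and 1.03 RPKM in cKO lenses. The cKO libraries were again the lowest 3 of 9, while inbred replicate 1 lay within the mixed range. Means were 4.62 ± 0.845, 6.70 ± 2.19 and 1.64 ± 0.880 RPKM, so that cKO was 4.095-fold below mixed and 2.82-fold below inbred. Hba-x had the fewest reads of the 4 genes, down to 25 in cKO replicate 3, where the 95% Poisson interval of its level is 0.664 to 1.51 RPKM. Its transcript shared 0% of its words with other genes and was identical to that of Hba-a2 at 66.2% of aligned bases.

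Ermap encodes a membrane protein of the immunoglobulin superfamily found on erythroid cells. Its level was 9.29, 9.51 and 8.21 RPKM in inbred, 13.3, 12.7 and 13.4 RPKM in mixed and 3.38, 3.09 and 2.49 RPKM in cKO lenses. The 3 groups did not overlap, with mixed highest and cKO lowest. Means were 9.002 ± 0.695, 13.1 ± 0.360 and 2.99 ± 0.458 RPKM, a 4.39-fold lower level in cKO than in mixed and 3.01-fold lower than in inbred.

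Tek was at 2.77, 2.28 and 3.09 RPKM in inbred, 2.80, 2.82 and 2.51 RPKM in mixed and 7.84, 8.61 and 8.49 RPKM in cKO lenses. The mixed libraries lay inside the inbred range, and the cKO libraries were all above both. Means were 2.71 ± 0.410, 2.71 ± 0.172 and 8.31 ± 0.410 RPKM, so that cKO was 3.06-fold above each wild type group. Its transcript shared 0% of its words with other genes.

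The comparison of cKO with mixed lenses chose the 190 genes, so its values are a description. By the authors' normalized expression values, whose unit is not stated, the smallest fold of group means among the 190 genes was 2.50. Tek lay just inside it at 2.52, followed by Hba-x at 5.02, Ermap at 5.32 and Hba-a2 at 7.22. Expressed as log2(RPKM + 0.5), a scale that compresses differences of genes at low levels, the differences were -2.14 (SE 0.18) for Hba-a2, -1.79 (SE 0.27) for Hba-x, -1.97 (SE 0.11) for Ermap and 1.46 (SE 0.09) for Tek. Libraries were apart for all 4 genes, as for 100% of the 190. By limma 99.5% of the 190 genes were called, 54.2% higher and 45.3% lower in cKO, and of the 4 genes 1 was higher and 3 lower. The listing fixed these shares, so nothing is read from them. The median difference over the 190 genes was 1.37, so Tek lay close to it. After centring each library on its median the difference was 0.57 for Tek, and -3.03, -2.67 and -2.86 for Hba-a2, Hba-x and Ermap. That median is of the listed genes alone, so it follows their mix of higher and lower genes.

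Differences between cKO and inbred lenses could be tested by limma over the 128 shared genes, with the limit that the cKO libraries had taken part in the listing. All 4 genes were called (adjusted p under 0.05), 3 lower and 1 higher, against 93.8% of the 128 genes, 60.9% lower and 32.8% higher. Nearly every listed gene was called, so the share says little about these 4. Hba-a2 was lower by a log2 difference of -1.87 (SE 0.14, limma adjusted p = 9.70e-09), Ermap by -1.45 (SE 0.14, adjusted p = 1.27e-07) and Hba-x by -1.32 (SE 0.22, adjusted p = 4.51e-05). Tek was higher by 1.46 (SE 0.14, limma adjusted p = 1.02e-07). The median difference of the 128 genes was -0.57, and with centring Hba-a2, Hba-x, Ermap and Tek stood at -2.22, -1.67, -1.80 and 1.12, all still called. Here too the median is of listed genes, nearly all of which differed, so centring is no independent check.

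Mixed lenses (Sip1 flox/flox without Cre) and inbred lenses differed in 1 of the 4 genes, against 49.2% of the 128 tested (30.5% higher and 18.8% lower in mixed). Ermap was higher in mixed lenses by a log2 difference of 0.52 (SE 0.09, limma adjusted p = 0.00142), with all 3 mixed libraries above all 3 inbred. Libraries did not overlap for this 1 of 4 genes, and for 57% of the 128. Neither Hba-a2 (0.27, SE 0.13, limma adjusted p = 0.104) nor Hba-x (0.46, SE 0.20, adjusted p = 0.0710) passed the threshold, and each call changed when certain single libraries were left out. Without mixed replicate 1 Hba-a2 passed (0.40, limma adjusted p = 0.0142), and so did Hba-x without inbred replicate 1 (0.59, adjusted p = 0.0450) or mixed replicate 3 (0.61, adjusted p = 0.0196). Tek differed by 0.01 (95% interval -0.30 to 0.31, limma adjusted p = 0.982). This comparison shares the inbred libraries with that of cKO and inbred. The mixed libraries had also taken part in the listing of the genes, so these tests are not fully independent of that choice.

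**Figure D2:**
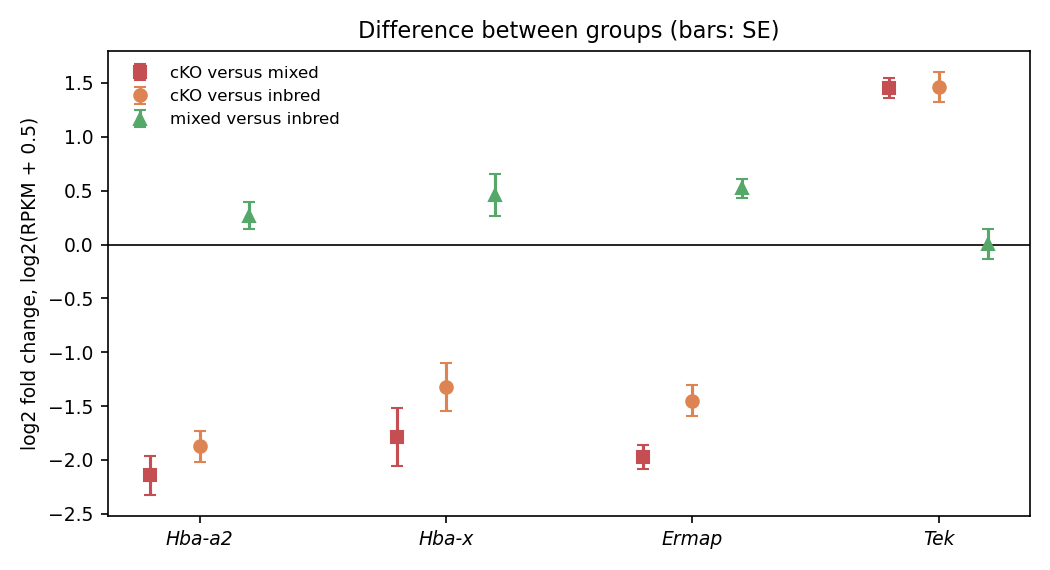
Differences between groups for the 4 genes as log2 fold changes of RPKM + 0.5, with bars of 1 standard error from limma (3 libraries a group). Hba-a2, Hba-x and Ermap lie below 0 and Tek above 0 in both cKO comparisons, and in mixed against inbred lenses Ermap lies above 0 (0.52) and Tek at 0.01.

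Within a library, a ratio of 2 genes does not depend on the scaling of the library. Hba-x was 1.32, 1.13 and 1.07% of the Hba-a2 level in inbred, 1.45, 1.74 and 1.03% in mixed and 1.87, 1.48 and 1.003% in cKO lenses. The 3 groups overlapped in this ratio of embryonic to adult alpha-type globin. Ermap was 2.21, 2.44 and 2.25% of Hba-a2 in inbred, 3.39, 2.40 and 2.64% in mixed and 2.40, 3.71 and 2.43% in cKO lenses, likewise overlapping. The log2 ratio in cKO minus that in mixed was 0.03 for Hba-x and 0.00 for Ermap, each smaller than the replicate SDs of 0.26 to 0.46, and both changed sign when single libraries were left out. These overlaps hold for RPKM, and ratios of the authors' normalized values were not tested. By normalized means Hba-a2 was 5.59-fold lower in cKO than in inbred lenses, Hba-x 3.48-fold and Ermap 3.02-fold lower. Against mixed lenses these folds were 7.22, 5.02 and 5.32, so by that value Hba-a2 fell more than the other genes.

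The ratio of Tek to Hba-a2 sets side by side 2 genes that were listed for opposite differences between cKO and mixed lenses, so its values in cKO lenses are a description with no test. Tek was 0.658, 0.585 and 0.846% of Hba-a2 in inbred, 0.714, 0.534 and 0.497% in mixed and 5.56, 10.3 and 8.30% in cKO lenses. The cKO libraries exceeded every wild type library, 13.6-fold over mixed by the mean log2 ratio. Against inbred the log2 difference was 3.50. For Tek in mixed against inbred, and for Hba-x and Ermap against Hba-a2 in mixed or cKO against inbred, the log2 differences ran from -0.26 to 0.28 and the adjusted p was 0.4 (exact two-sided permutation test, adjusted over 8 ratios, where 3 against 3 libraries cannot go below p = 0.1). With 0.5 RPKM added to both genes of a ratio, the differences between cKO and inbred rose to 0.55 for Hba-x and 0.42 for Ermap. Each had an unadjusted exact permutation p = 0.1, the lowest possible. The differences between cKO and mixed rose to 0.36 for Hba-x and 0.17 for Ermap. The addition weighs most where Hba-x and Ermap are lowest, in cKO lenses. It raises these ratios there by itself, so nothing is read from the rise.

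**Figure D3:**
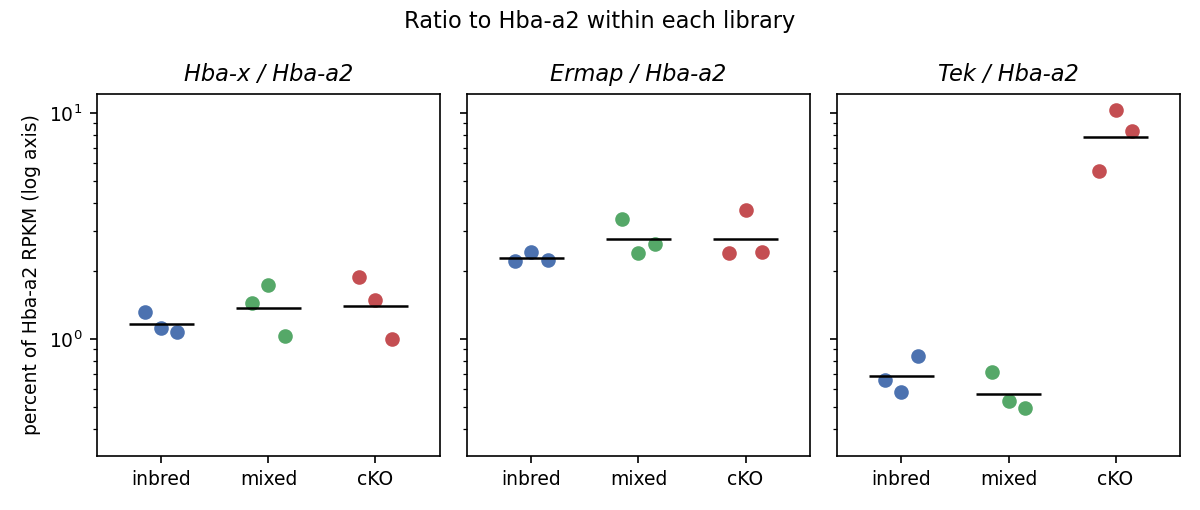
RPKM of 3 genes as a percentage of the Hba-a2 RPKM of the same library, on a log axis. Points are libraries and black lines are the geometric means of each group. By RPKM, Hba-x and Ermap overlap between the 3 groups, and the cKO points for Tek (5.56 to 10.3%) lie above all wild type points.

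The authors' second value, the normalized expression value, gave Hba-a2 a low weight. Per recovered read it was 12.1 to 13.5% of the library's median gene in inbred, 10.7 to 12.1% in mixed and 8.29 to 8.63% in cKO lenses, so that reads of Hba-a2 counted far less there than in RPKM. Of the genes 1.37 to 1.71% had a still lower value per read in inbred, 7.81 to 9.38% in mixed and 11.2 to 12.7% in cKO lenses, so the low weight was not particular to Hba-a2. Hba-a1 stood at 14.8 to 16.1% in inbred lenses. Hba-x, Ermap and Tek had 98.5 to 131% of the median in the 9 libraries. By normalized values Hba-a2 was 7.22-fold lower in cKO than in mixed, against 4.37-fold by RPKM, and which of them is nearer to the level of the transcript was not tested.

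**Figure D4:**
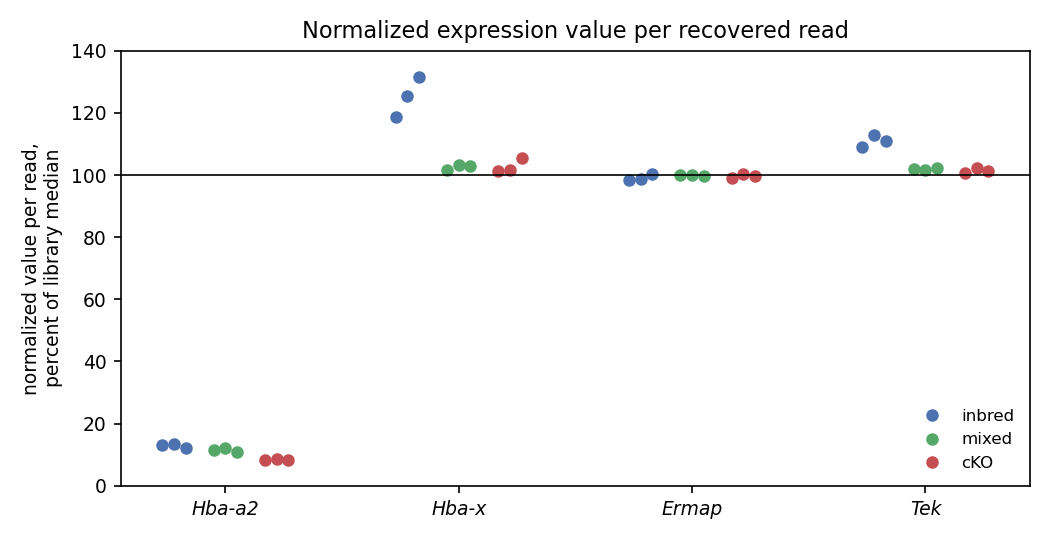
Authors' normalized expression value per recovered read, as a percentage of the library's median gene (line at 100%), for the 4 genes in every library. Hba-a2 lies between 8.29 and 13.5%, and the other 3 genes lie between 98.5 and 131%.

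Other genes of the same cells were available for inbred lenses. Hba-a2 ranked 83 of 7676 genes by mean RPKM, Ermap 3406, Hba-x 5357 and Tek 6890, and the median gene was at 7.65 RPKM. Of 14 globin genes 6 were listed. The other alpha gene Hba-a1 was at 264, 270 and 276 RPKM, and the adult beta genes at 256, 283 and 277 RPKM for Hbb-b1 and 147, 152 and 136 RPKM for Hbb-b2. Adult alpha globin exceeded adult beta globin 1.52-fold to 1.70-fold. The embryonic beta-type gene Hbb-y, at 16.7, 15.03 and 10.1 RPKM, made up 2.38 to 3.97% of the summed RPKM of the listed beta-type genes, and Hba-x 0.607 to 0.805% of that of the alpha-type genes. Adult chains thus gave most globin RNA in these lenses, and all 6 genes together held 0.0936 to 0.0972% of the listed reads. Hbb-b1, Hbb-b2, Hba-a1 and Hbb-y are outside the 190 genes listed for mixed and cKO lenses and were not analysed in those groups. The 190 were chosen for a difference between these groups, so these globin genes were not listed as differing there. Of the erythroid list, 17 genes were in the inbred table and 4 among the 190. The genes described here are therefore not a sample of all red cell genes.

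Tek was 1 of 10 endothelial genes listed in inbred lenses. Ramp2, a receptor accessory protein of vessels, was highest at 16.7, 15.7 and 14.3 RPKM. Cd34 was at 6.38 ± 0.492, Egfl7 at 5.62 ± 0.221 and the capillary diaphragm gene Plvap at 5.49 ± 0.396 RPKM. The receptor genes Tie1 (2.19 ± 0.387 RPKM) and Kdr (2.32 ± 0.370 RPKM) were the 2 listed below Tek (2.71 ± 0.410 RPKM). Of 23 genes of TIE and VEGF signalling 8 were listed, led by the ligands Vegfa (27.0, 25.1 and 27.1 RPKM) and Vegfb (20.6 ± 1.28 RPKM), followed by the transcription factor gene Foxo1 (4.58 ± 0.789 RPKM) and the ligand Pgf (3.05 ± 0.323 RPKM). Tek was the only gene of these 2 lists among the 190, so its higher level in cKO lenses could not be set beside another endothelial gene there. Those 190 genes were chosen for a difference between cKO and mixed lenses, so no other gene of the 2 lists was listed as differing.

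**Figure D5:**
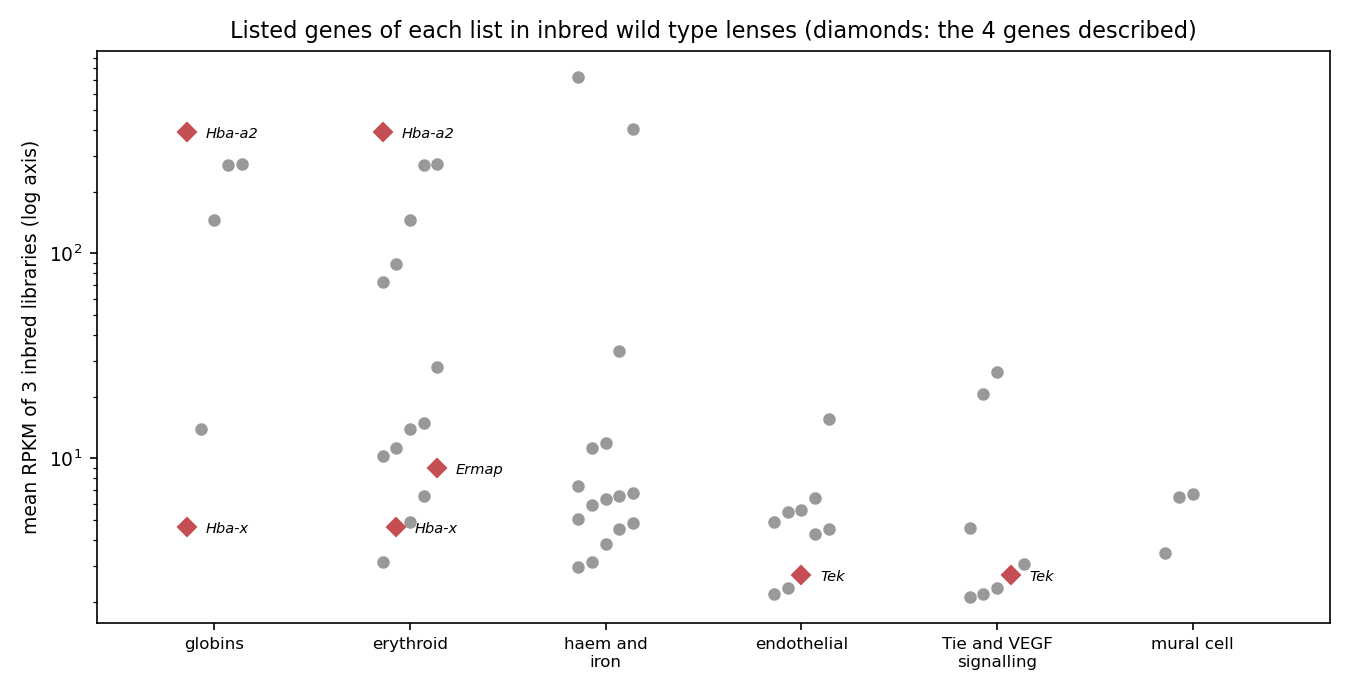
Mean RPKM of the listed genes of 6 lists in the 3 inbred libraries, on a log axis. Grey points are genes, and red diamonds are the 4 genes described, which appear in each list that holds them. Hba-a2 leads the globins, while Hba-x and Tek lie near the lower end of their lists.

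Over the 9 libraries, the genes with patterns nearest to each of the 4 were found by Pearson's r of log2(RPKM + 0.5) among the other 127 shared genes. The libraries form 3 groups, which r follows, and they share depth within groups, so r is given as a description. The nearest to Hba-a2 were the ribosomal protein gene Rpl34 (r = 0.99, and 0.90 for deviations from group means), Tubb4 (0.99 and 0.86) and Tpm2 (0.98 and 0.64). Tpm2, Rpl34 and Fxyd1 were nearest to Hba-x (r = 0.96 for each). For Ermap these were Scn11a (r = 0.996), Elovl4 (0.99) and Cnrip1 (0.99), and for Tek Btg2, Myh7b and Hddc3 (0.99 each). None of these genes is on the erythroid or endothelial list, but the search had almost no such gene to find. Only 4 erythroid genes, Hba-a2, Hba-x and Ermap among them, were listed for mixed and cKO lenses. Tek was the only endothelial gene listed there, so nothing is read from this absence. Among the 4 genes, r was 0.95 for Hba-a2 with Hba-x (0.75 for deviations), 0.97 for Hba-a2 with Ermap (0.33) and -0.97 for Hba-a2 with Tek (-0.37).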

How the data were processed

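Lens RNA was sequenced in 9 libraries. Per the file headers, the authors deposited RPKM and, beside it, a normalized expression value treated here as a score because no unit is stated. The inbred tables also hold exon lengths. The submitters' processing notes name CASAVA 1.8.2. The aligner, annotation and build were not given in the sources used here. From the inbred tables, 12 symbols on 24 of 7700 rows were dropped because they were repeated. Reads were recovered as whole steps of RPKM times exon length, with counting intervals at 95%. RPKM is scaled to all mapped reads, so a change in the most abundant genes shifts the rest. Groups were compared by limma 3.58.1 in R 4.3.3, with a trend of variance on level, after adding 0.5 to RPKM and taking log2. A gene entered if it averaged 1 RPKM or more over the 6 libraries of the comparison. P-values were adjusted by Benjamini-Hochberg at 0.05, and the fit was tested on simulated data. Named were 4 of the 5 genes, up to 4 top genes of each list in inbred lenses and the 3 nearest patterns. Tie1, Kdr, Tfrc, Alas1, Alas2, Apln and the neighbours of Ermap were added after the values were seen. The fifth gene and 1 listed gene entered the fits and sums and are not reported here. The genes and lists were chosen with earlier results of these data known. Transcripts and gene order came from GENCODE M21 (GRCm38), promoters from RefSeq. Python 3.11.15 with scipy 1.17.1 was used for ratios.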

Additional observations from a re-analysis of the deposited data

How the results depend on the processing

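For mixed against inbred lenses, Tek (log2 difference 0.01) turned to -0.14 under median centring, rose to 0.24 under quantile normalization, ranged from -0.0952 to 0.0900 with 1 library left out, and was never called. With 1 library left out Hba-a2 ranged from 0.19 to 0.40 and Hba-x from 0.23 to 0.61, and Hba-a2 was at 0.10 under quantile normalization and 0.12 under median centring. For cKO against mixed lenses no direction changed, but sizes did. Under quantile normalization the values were -1.60 for Hba-a2, -2.84 for Hba-x, -2.73 for Ermap and 0.57 for Tek, and under median centring -3.03, -2.67, -2.86 and 0.57. With the authors' normalized values they were -2.78 for Hba-a2, -2.39 for Ermap and 1.31 for Tek. A pseudocount of 0.1 gave 1.58 for Tek, and a pseudocount of 1 gave 1.33 for Tek and -1.83 for Ermap. The log2 ratio of Hba-x to Hba-a2 in cKO minus mixed ranged from -0.175 to 0.278 with 1 library left out, and that of Ermap from -0.205 to 0.145. The causes of these shifts were not tested.

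The labels number the replicates 1 to 3 in each group. Deviations of same-numbered libraries correlated at -0.52 to 0.24 over 9 pairs and those of other numbers at -0.46 to 0.65 over 18, so the numbers do not pair the samples. With the replicate number as a block limma called 47 of 128 genes for mixed against inbred, in place of 63, and 120 for cKO against inbred, as without it. No call of the 4 genes changed with the block (Ermap adjusted p = 0.00858 for mixed against inbred). Over all settings, limma called 46 to 65 genes for mixed against inbred, 105 to 122 for cKO against inbred and 127 to 190 for cKO against mixed. The 127 came from the joint fit, which tests the 128 genes in all 9 libraries. Of the values recomputed for the 4 genes, 10 changed sign and 3 gained a call. For cKO against mixed lenses 14 moved by more than the replicate spread, a measure not applied to the tested comparisons. Sizes shifted there too, as for Tek in cKO against inbred lenses (1.46, and 1.12 under median centring). Depth limits Hba-x most, at 25 to 68 reads in cKO.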

Other observations

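Red cells are also known for haem synthesis and iron uptake, and 17 of 20 genes of that list were in the inbred table, none of them among the 190. The iron-storage genes Ftl1 (769, 743 and 671 RPKM) and Fth1 (404 ± 6.72 RPKM, SD, n = 3) had means above that of Hba-a2, Fth1 with overlapping libraries, and the haem-degrading enzyme gene Hmox1 was at 32.7, 40.8 and 26.2 RPKM. The transferrin receptor gene Tfrc (6.53 ± 0.461 RPKM) lay near the median gene. Alas2, the gene of this list that is also on the erythroid list for haem synthesis, was not in the inbred table, whereas Alas1 was (5.07 ± 0.242 RPKM). The share of this list that was found is therefore not read as a sign of red cells. Pericytes and smooth muscle cells of vessels were represented by 3 of 11 mural genes, Notch3 (6.67 ± 1.45 RPKM), Rgs5 (6.45 ± 0.523 RPKM) and Acta2 (3.45 ± 0.341 RPKM), and these levels lay within the range of the endothelial genes.

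The gene next to Ermap on the chromosome in GENCODE M21, on the opposite strand and not overlapping it, is Svbp, named Ccdc23 in the deposited tables. Ccdc23 was at 41.4, 41.4 and 33.5 RPKM in inbred, 68.8, 76.9 and 83.4 RPKM in mixed and 26.0, 28.1 and 27.8 RPKM in cKO lenses. The groups were in the same order as for Ermap, with no overlap. It was 1.97-fold higher in mixed than in inbred lenses (log2 difference 0.97, SE 0.11, limma adjusted p = 0.000258), 1.42-fold lower in cKO than in inbred (-0.49, SE 0.10, limma adjusted p = 0.000300) and 2.80-fold lower in cKO than in mixed, the last as a description. Ccdc23 was picked after its values were seen, and the mixed and cKO libraries had taken part in its listing. Libraries also did not overlap for 57% of the 128 shared genes in mixed against inbred and 93.8% in cKO against inbred. For cKO against mixed this held for 100% of the 190 genes. Limma called 49.2% of the 128 genes for mixed against inbred and 93.8% for cKO against inbred. The other close neighbours, Zfp691 (2.82, 1.89 and 2.42 RPKM) and Slc2a1 (217, 223 and 236 RPKM), were listed for inbred lenses alone.

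Apln, which encodes the vessel peptide apelin, is on none of the lists and was picked after its values were seen. It was at 0.933 ± 0.0163 RPKM in mixed and 3.52 ± 0.443 RPKM in cKO lenses, 3.78-fold higher in cKO, and is not among the genes listed for inbred lenses. As with Tek, the difference placed it on the list of 190 genes and was given no test.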
